A study of Mus musculus with 9 samples.

Results

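The weaker of a pair of Eya3 hairpins, shEya3_KD2, was compared with a scrambled hairpin in 66cl4 cells, a mouse mammary cancer line labelled as triple negative. The comparison takes 6 of the 9 poly(A) RNA-seq libraries in the series. SCR cells (3 libraries) carry the scrambled hairpin and shEya3_KD2 cells (3 libraries) carry the second Eya3 hairpin. The other 3 libraries carry the first hairpin, shEya3_KD1. They show where the hairpins differ, and they also enter the filter and the estimate of spread behind every p-value. All groups were transduced, kept in puromycin and grown as cultures in high-glucose medium with calf serum, so the controls share transduction and selection. The labels call the samples biological replicates without saying whether they are separate transductions, clones or cultures, so the p-values measure only the spread between these samples. The members are all genes that pass a filter on low counts, 15914 of the 55418 gene symbols in the deposited table, and each is described inside or outside a list of interferon-induced genes.

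Eya3 is a co-activator of homeobox factors of the sine oculis family that also carries phosphatase activity. Type I interferons are cytokines made when a cell senses foreign or misplaced nucleic acid. They act through a receptor, Jak kinases and a complex of transcription factors, which binds repeated GAAA elements in the promoters of antiviral genes. Tumour cells can run this program at a low level, and parts of it are also induced by other signals.

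Eya3 (chromosome 4, 132638987 to 132724765, mm10) was lower in shEya3_KD2. It stood at 68.1, 79.0 and 71.7 counts-per-million (CPM) in the 3 SCR libraries and at 38.7, 39.8 and 34.1 CPM in the 3 shEya3_KD2 libraries, with no overlap. The log2 fold change was -0.96 ± 0.08 (SE, n = 3 per group), with an adjusted p of 3.27e-07 in edgeR's quasi-likelihood test. This hairpin left more Eya3 than shEya3_KD1, where the mean was 23.1 CPM (difference 0.70 ± 0.08, adjusted p = 6.98e-06). Fold changes below are log2 values from the same fit, and a gene "rose" or "fell" where its Benjamini-Hochberg adjusted p over all 15914 genes was under 0.05. The mm10 positions are those of the GENCODE M21 annotation.

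The 6 libraries held 27758862 to 52691960 counts, and replicate 2 of shEya3_KD2 was the shallowest. In a principal component analysis of all 9 libraries the first 2 components, with 62.3% and 25.9% of the variance, separated the 3 groups. The third component, 3.48% of the variance, held shEya3_KD2 replicates 2 and 3 at opposite ends (-24.66 and 24.14). Replicate 2 lay farthest from SCR in 67.1% of the genes that rose and 50.5% of those that fell. Without that library 3296 genes rose and 3322 fell, against 3656 and 3554 with it.

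Markers of the labelled cell type were checked in both groups. Vim was at 2099 CPM in SCR and 2489 CPM in shEya3_KD2, and Krt8 at 679 and 792 CPM. Epcam had no counts in either group, and summed Cdh1 counts were 9 in SCR and 22 in shEya3_KD2, so these defining epithelial markers were at or near 0. Pgr had no counts, Erbb2 stood at 53.6 CPM in SCR and 67.1 CPM in shEya3_KD2, and Esr1, the oestrogen receptor, at 7.12 and 16.0 CPM. Esr1 and Erbb2 both rose (1.15 and 0.32). Of 17 macrophage markers 7 could be tested, and their summed level was 80.3 to 82.2 CPM in SCR and 34.7 to 40.9 CPM in shEya3_KD2. Lyz2, Cd14, Mrc1 and Ptprc fell, Cd68 (0.32) and C1qb (from 4 summed counts to 44) rose, and Tyrobp, C1qa and C1qc had no counts in either group. Lymphocyte markers could be tested for 2 of 19 genes, of which 0 were called. Fibroblast markers had 6 of 12 tested, with 1 risen and 2 fallen, and endothelial markers 4 of 12, with 0 risen and 2 fallen. Cd8a, Trbc1, Trbc2, Lum, Thy1 and Cldn5 had no counts in either group. Their part in the results was not tested, and in bulk RNA fewer cells of a type and less RNA per cell cannot be told apart.

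Across all tested genes 45.3% passed the test, 23% higher and 22.3% lower in shEya3_KD2. Among those of at least 5 CPM on chromosomes 1 to 19 and X, 30.6% rose and 22.2% fell. The list counts below are to be read beside these shares. Most of the changes were small: 60.8% of the called genes changed by less than 1.5-fold, and the median absolute log2 fold change among them was 0.47. Genes that rose more than 2-fold made up 3.37% of those tested, and genes that fell more than 2-fold 5.93%. In 27.4% of genes all 3 shEya3_KD2 libraries lay above all 3 SCR libraries, and in 27% they lay below. The interferon response, the union of 5 gene lists, stood far above this background: 97 of 106 tested members rose and 3 fell. Among the 15808 tested genes outside it 3559 rose and 3551 fell. By more than 2-fold 461 of these rose and 942 fell. Among genes of at least 5 CPM, interferon genes included, the direction was the reverse. There 232 rose and 113 fell by more than 2-fold outside the chromosomal blocks described below. In the falling blocks 10 rose and 20 fell by that much, and in the rising block 14 and 0. The excess of falls thus lay among genes under 5 CPM. With the trend over gene length removed, 3374 of all tested genes rose and 4002 fell.

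The interferon response rose across nearly all of its members, with a median log2 fold change of 1.48 against 0.00 over all genes tested. Of its 106 tested members 75 rose more than 2-fold, and 97 had all 3 shEya3_KD2 libraries above all 3 SCR libraries. The summed level of the response was 4849 to 5171 CPM in SCR and 9366 to 14300 CPM in shEya3_KD2. Replicate 2 had the highest value of the 3 shEya3_KD2 libraries for 102 of the 106 genes. The median difference of replicates 1, 2 and 3 from SCR was 1.21, 1.91 and 1.27. Without replicate 2 the median was 1.28. Of the 118 listed genes 115 are in the table and 9 of those were too low to test.

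The promoters of the 3 most changed protein-coding members are shown first. Promoters were printed only where they hold the paired GAAA element, through which this pathway is known to act. Each is the 250 bases before the start site, from the RefSeq table of GRCm38.p6, with matches to GAAANNGAA on either strand in capitals.
Ifit3 (chr19:34583279-34583528, plus strand): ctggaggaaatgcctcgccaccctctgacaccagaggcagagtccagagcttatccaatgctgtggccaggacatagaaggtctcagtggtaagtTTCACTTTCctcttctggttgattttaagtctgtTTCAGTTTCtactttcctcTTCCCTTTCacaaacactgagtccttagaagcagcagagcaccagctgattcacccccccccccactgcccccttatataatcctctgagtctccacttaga
Ifit3b (chr19:34607707-34607956, plus strand): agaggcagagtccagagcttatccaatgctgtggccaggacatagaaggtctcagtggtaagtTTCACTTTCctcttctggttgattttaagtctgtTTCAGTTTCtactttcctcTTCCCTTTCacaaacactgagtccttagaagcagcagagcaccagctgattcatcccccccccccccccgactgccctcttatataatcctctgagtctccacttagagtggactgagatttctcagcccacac
Ifi205 (chr1:174031756-174032005, minus strand): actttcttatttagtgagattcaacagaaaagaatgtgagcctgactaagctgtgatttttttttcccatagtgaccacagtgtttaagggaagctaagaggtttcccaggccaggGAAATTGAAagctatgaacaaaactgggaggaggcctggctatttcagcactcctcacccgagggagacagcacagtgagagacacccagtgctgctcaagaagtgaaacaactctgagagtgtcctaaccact
Ifit3 and its neighbouring copy Ifit3b hold 3 matches each in these bases, and Ifi205 holds 1. Over a window of 250 bases before to 50 after the start, GAAANNGAA was present in 51.0% of 100 promoters of the response, which came from 80 of the 106 genes. It was present in 7.3% of 13008 promoters of tested genes and in 8.6% of all 32851 promoters in the table. The list was drawn up from genes known to be interferon-induced, so the share in it describes that choice of genes. A match describes the letters in this window and is not a binding site.

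The antiviral effectors, which act directly on viral RNA, protein synthesis or particles, nearly all rose. Of 31 tested members 30 rose and 0 fell, with a median of 1.44. Ifit3, which binds viral RNA together with Ifit1, stood at 2.95, 2.89 and 3.66 CPM in SCR and 24.8, 42.0 and 23.5 CPM in shEya3_KD2. That is a log2 fold change of 3.24 ± 0.23 (adjusted p = 1.58e-06), with replicate 2 the highest and no overlap between the groups. Ifit1, which recognises RNA with an incomplete cap, rose from 17.0, 14.6 and 16.0 CPM to 94.3, 132 and 96.5 CPM (2.76 ± 0.14, adjusted p = 2.88e-08). Mx1, a GTPase that blocks influenza-like viruses, went from 0.792, 0.963 and 0.914 CPM to 5.70, 11.3 and 7.06 CPM (3.14 ± 0.24, adjusted p = 4.87e-07). Ifit3b (3.19), Ifit1bl2 (2.78) and Ddx60 (2.60) rose as well. Mx2 had the widest log2 fold change of the response (3.33) but is annotated as a polymorphic pseudogene, so it was not among the named protein-coding genes. Counts for Ifit3 and Ifit3b are uncertain between these near-identical copies.

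**Figure D1:**
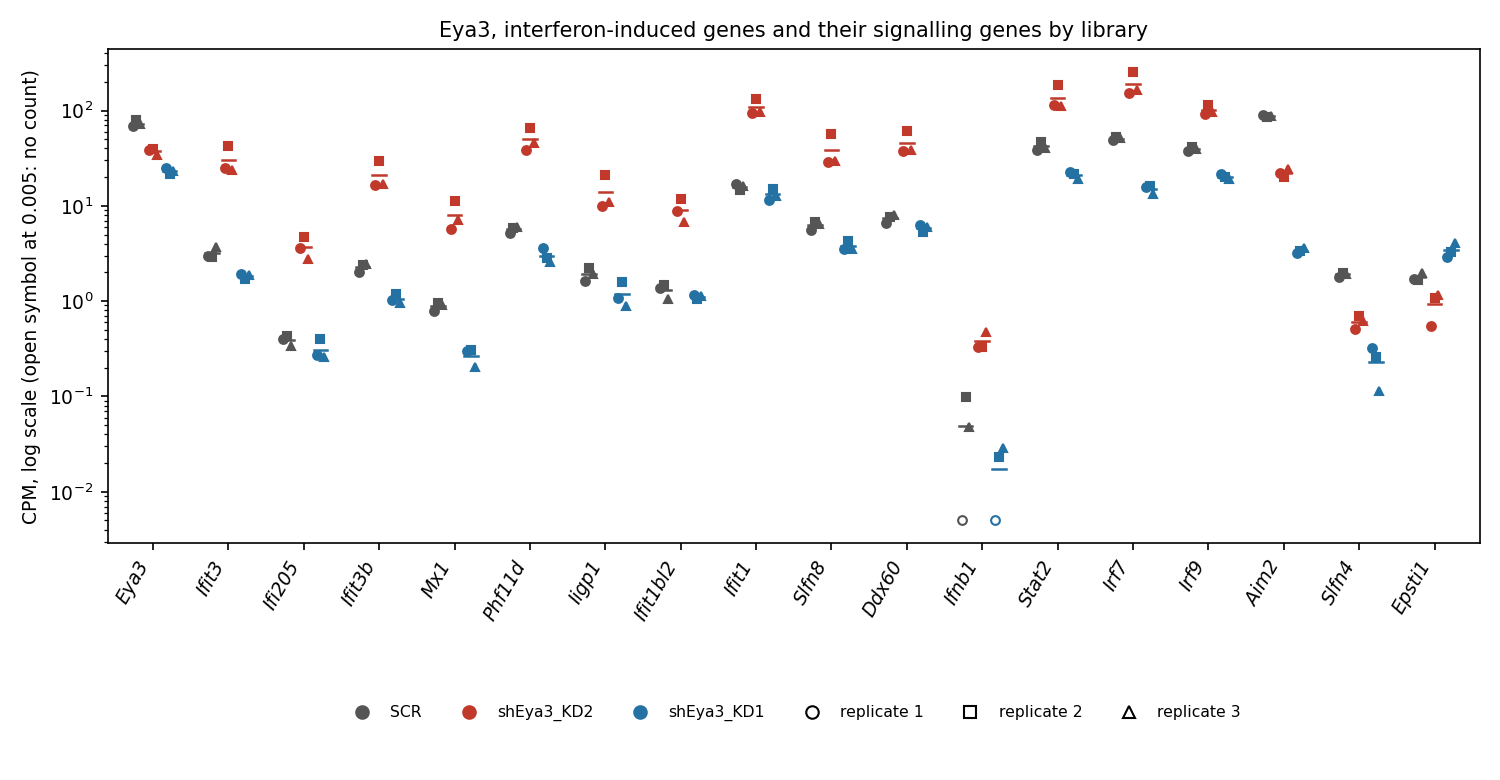
CPM on a log axis for Eya3, the 10 most changed interferon-induced genes, Ifnb1, 3 signalling genes and the 3 tested members that fell. There is 1 symbol for each of the 9 libraries, a line at each group mean and open symbols for libraries with no count. The interferon-induced genes sit above SCR in all 3 shEya3_KD2 libraries, with replicate 2 highest for Ifit3 (24.8, 42.0 and 23.5 CPM), while Aim2 sits below (22, 19.9 and 24.3 CPM).

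Most sensors of nucleic acid rose, and Aim2 fell. Of 14 tested sensors 12 rose and 1 fell, with a median of 1.70. Ifi205, a member of the DNA-binding Ifi200 family, rose from 0.396, 0.433 and 0.337 CPM to 3.61, 4.73 and 2.76 CPM (3.21 ± 0.23, adjusted p = 6.88e-08). Zbp1, a sensor of Z-form nucleic acid that can start cell death, stood at 4.43, 5.03 and 4.81 CPM in SCR and 19.97, 41.6 and 21.8 CPM in shEya3_KD2 (2.53 ± 0.28). Both genes were low in every SCR library and several-fold higher in every shEya3_KD2 library. The RNA helicases Ddx58 (RIG-I) and Ifih1 (MDA5) rose by 1.32 and 1.64. Tmem173 (STING), the adaptor of cytosolic DNA sensing, rose by 0.34. Mavs, the adaptor of the RNA helicases, was at 24.9 and 26.7 CPM and was not called (0.10 ± 0.08). Aim2, which binds cytosolic DNA and assembles an inflammasome, went the other way, from 90.4, 84.6 and 86.9 CPM to 22, 19.9 and 24.3 CPM (-1.98 ± 0.08, adjusted p = 1.23e-10).

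Interferon-inducible GTPases of the Gbp and Irg families, which attack vacuoles of intracellular parasites and bacteria, had 13 of 16 tested members risen and 0 fallen (median 1.71). Iigp1 rose from 1.62, 2.22 and 1.92 CPM to 9.87, 21.2 and 10.95 CPM (2.84 ± 0.31). Irgm1, a regulator of the family, rose by 1.81 and Gbp2 by 1.69. All 13 tested genes of the Isg15 system and the interferon-induced Parp enzymes rose (median 1.63). Isg15, a ubiquitin-like modifier, stood at 42.6, 38.0 and 42.5 CPM in SCR and 137, 195 and 148 CPM in shEya3_KD2 (1.96 ± 0.12). Usp18, which removes Isg15 and damps receptor signalling, rose by 2.30 and Parp14 by 2.46. Of 32 other interferon-induced genes 29 rose, led by Phf11d (3.14 ± 0.20) and Slfn8 (2.61 ± 0.26). Rnf213, a very long gene, rose by 1.38 ± 0.38 with values of 728, 1648 and 580.0 CPM, so replicate 2 stood well above the other two.

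Slfn4 and Epsti1 fell within that list, with log2 fold changes of -1.68 ± 0.22 and -0.99 ± 0.24. Slfn4 went from 1.80, 1.99 and 1.92 CPM to 0.507, 0.702 and 0.614 CPM, a low level in both groups. Together with Aim2 these were the only tested members of the response that fell. Without the low-count filter 3 genes of the list that holds Slfn4 and Epsti1 fell.

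The factors that carry interferon signals rose less evenly. Of 20 tested receptors, kinases, Stat and Irf factors 10 rose and 1 fell, with a median of 0.24, or 0.15 among those of at least 5 CPM in 3 libraries. Under RLE scaling, thinning or DESeq2 2 fell, and 3 fell under that filter. Irf7, the amplifier of interferon transcription, rose from 48.6, 52.8 and 51.1 CPM to 152, 255 and 163 CPM (1.90 ± 0.18, adjusted p = 1.68e-05). Irf5 rose by 2.23 from a mean of 0.271 CPM. Stat2 and Irf9, parts of the interferon-activated complex, rose by 1.68 and 1.34. Irf7, Stat2 and Irf9 are themselves known interferon-induced genes. The receptor chain Ifnar1 (0.13 ± 0.06) and the factor Irf3 (-0.14 ± 0.06), which is regulated mainly by phosphorylation, were not called. Ifngr2, a chain of the interferon gamma receptor, fell from 46.0, 44.2 and 44.5 CPM to 39.5, 37.1 and 37.5 CPM (-0.24 ± 0.07). Irf7 overlaps Phrf1 and Irf5 overlaps Tnpo3 in the annotation, and whether the counting used strand is not given in the sources used here.

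Of the 21 interferon genes listed only Ifnb1, the interferon made first by non-immune cells, had enough counts to test. Its summed counts were 7 in SCR and 46 in shEya3_KD2, or 0, 0.0983 and 0.0481 CPM against 0.332, 0.332 and 0.472 CPM. The log2 fold change was 2.89 ± 0.57 with an adjusted p of 7.74e-04, and all 3 shEya3_KD2 libraries lay above SCR. The other 20 interferon genes had at most 4 counts in either group.

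Class I antigen presentation, which displays peptides to T cells, is partly interferon-induced. Of 24 tested members 13 rose and 2 fell (median 0.23). Tap1, a subunit of the peptide transporter, rose from 7.07, 8.53 and 8.22 CPM to 23.1, 37.2 and 23.4 CPM (1.80 ± 0.17). Erap1, which trims peptides, rose by 0.66. The heavy chains H2-K1 (0.06 ± 0.07) and H2-D1 (-0.11 ± 0.07) and their partner B2m (0.16 ± 0.08) were not called. H2-M3, a non-classical chain, and the chaperone Calr fell (-0.35 ± 0.08 and -0.31 ± 0.07). Tap1 overlaps Psmb9 in the annotation.

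The hairpins differed in the interferon response. The contrasts of each hairpin with SCR share the SCR libraries, so the direct test between hairpins was used. Over all genes 49.6% differed between shEya3_KD2 and shEya3_KD1, with 27% higher and 22.5% lower in shEya3_KD2. In the interferon response 100 of 106 genes were higher in shEya3_KD2 and 4 were lower. Against SCR the median of these 106 genes was 1.48 with shEya3_KD2 and -0.96 with shEya3_KD1, where 6 rose and 73 fell. For all genes with shEya3_KD1 the shares were 24.1% risen and 26.2% fallen. Irf7 was at 15.1 CPM in shEya3_KD1 (3.65 ± 0.19 between hairpins, adjusted p = 1.59e-07). Zbp1 was at 0.596 CPM there (5.50 ± 0.38), and Ifit1 at 13.2 CPM (3.03 ± 0.14). The hairpin that lowered Eya3 less was the one with the higher interferon response.

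Outside the interferon response, risen genes were also counted in the amino acid response driven by Atf4, a factor translated when amino acids or protein folding run short. Of 40 tested members 32 rose and 0 fell, with a median of 0.49 and library medians of 0.53, 0.49 and 0.44. Replicate 2, highest throughout the interferon response, was the highest library for only 13 of the 40 genes. Cth, which makes cysteine from cystathionine, rose from 13.9, 11.2 and 14.5 CPM to 44.4, 41.4 and 48.2 CPM (1.76 ± 0.13, adjusted p = 5.23e-07). Slc6a9, a glycine transporter, rose from 30.9, 32.5 and 34.0 CPM to 93.0, 95.2 and 82.4 CPM (1.48 ± 0.07, adjusted p = 1.40e-09). The 3 shEya3_KD2 libraries were close to one another for both genes and far from SCR. Wars, the tryptophanyl-tRNA synthetase, rose by 1.39, and the growth brake Ddit4 by 1.36. Sesn2, which senses leucine, rose by 1.16 and the pseudokinase Trib3 by 1.11. Atf4 itself rose from 486, 428 and 501 CPM to 699, 638 and 682 CPM (0.51 ± 0.08). Asns, the asparagine synthetase, rose by 0.64, whereas Psat1, of serine synthesis, was not called (0.01 ± 0.09).

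Between hairpins 26 of the 40 genes were higher in shEya3_KD2 and 7 were lower. With shEya3_KD1 against SCR 24 rose and 8 fell (median 0.28). Vldlr, a lipoprotein receptor and the most changed member with the element in its promoter, rose from 26.1, 26.1 and 28.8 CPM to 65.4, 67.0 and 58.3 CPM (1.23 ± 0.07). Its promoter is shown with TGATGNAA, the core of the C/EBP-ATF response element, in capitals on the strand where it was found (GRCm38.p6).
Vldlr (chr19:27216770-27217019, plus strand): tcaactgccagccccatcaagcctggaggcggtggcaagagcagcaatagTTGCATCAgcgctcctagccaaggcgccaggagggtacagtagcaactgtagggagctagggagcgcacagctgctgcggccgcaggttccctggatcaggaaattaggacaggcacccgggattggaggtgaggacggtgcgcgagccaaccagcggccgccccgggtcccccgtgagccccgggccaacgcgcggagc
TGATGNAA, searched on both strands from 250 bases before to 50 after the start, was in 25.6% of 39 promoters of the list, 2.2% of 13008 promoters of tested genes and 4.0% of all 32851 promoters.

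Targets of Nrf2, the factor that induces antioxidant and glutathione genes, mostly rose. Of 35 tested targets 22 rose and 5 fell, with a median of 0.45. Without SCR replicate 1, SCR replicate 3 or shEya3_KD2 replicate 2 the number fallen was 3. Slc7a11, the cystine importer, rose from 65.8, 58.3 and 76.7 CPM to 162, 175 and 145 CPM (1.26 ± 0.11, adjusted p = 1.50e-06). It is a target of both Nrf2 and Atf4 and rose, while its neighbours on chromosome 3 had a median of -0.31. Hmox1, which degrades haem, rose by 0.75, and Gclm, of glutathione synthesis, by 0.76. Fth1, the iron-storing ferritin chain, rose from 7025, 6684 and 6600.0 CPM to 9348, 8834 and 9232 CPM (0.43 ± 0.07), the widest gain in CPM of any gene tested. Nqo1 rose by 0.63 ± 0.13, with values of 53.3, 40.9 and 62.9 CPM that were less even than those of Fth1. The glutathione transferase Gstm2 fell from 27.2, 24.01 and 26.8 CPM to 5.89, 6.17 and 6.16 CPM (-2.10 ± 0.08), and Osgin1 fell by 1.203. Txnrd1, a thioredoxin reductase, was not called (-0.09 ± 0.07).

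In the direct test 28 Nrf2 targets were higher in shEya3_KD2 than in shEya3_KD1 and 3 were lower. With shEya3_KD1 against SCR 6 rose and 20 fell. Slc7a11 stood at 29.0 CPM in shEya3_KD1 (2.47 ± 0.12 between hairpins). Abcc4, an exporter of drugs and cyclic nucleotides, rose from 33.8, 38.3 and 39.4 CPM to 74.2, 78.0 and 66.2 CPM (0.97 ± 0.09) and was the most changed target with the element TGACNNNGC before its start.
Abcc4 (chr14:118706220-118706469, minus strand): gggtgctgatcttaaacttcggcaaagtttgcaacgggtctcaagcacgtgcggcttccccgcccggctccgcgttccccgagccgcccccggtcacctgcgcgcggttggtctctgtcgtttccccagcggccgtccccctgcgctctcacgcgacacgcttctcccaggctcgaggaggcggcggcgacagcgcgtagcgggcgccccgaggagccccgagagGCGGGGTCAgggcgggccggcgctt
TGACNNNGC, the antioxidant response element, was in 29.7% of 37 promoters of the list, 14.2% of promoters of tested genes and 12.4% of all promoters, on either strand of the same window of GRCm38.p6.

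Genes of protein folding in the endoplasmic reticulum changed by small amounts. Of 29 tested genes 11 rose and 4 fell (median 0.12), and none changed more than 2-fold. Sel1l, of the degradation complex, rose by 0.80 and the regulator Crebrf by 0.64. The main chaperone Hspa5 (BiP) was at 694 and 755 CPM and was not called (0.12 ± 0.07). Dnajb9 fell by 0.40, beside a median of -0.25 among its neighbours on chromosome 12.

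**Figure D2:**
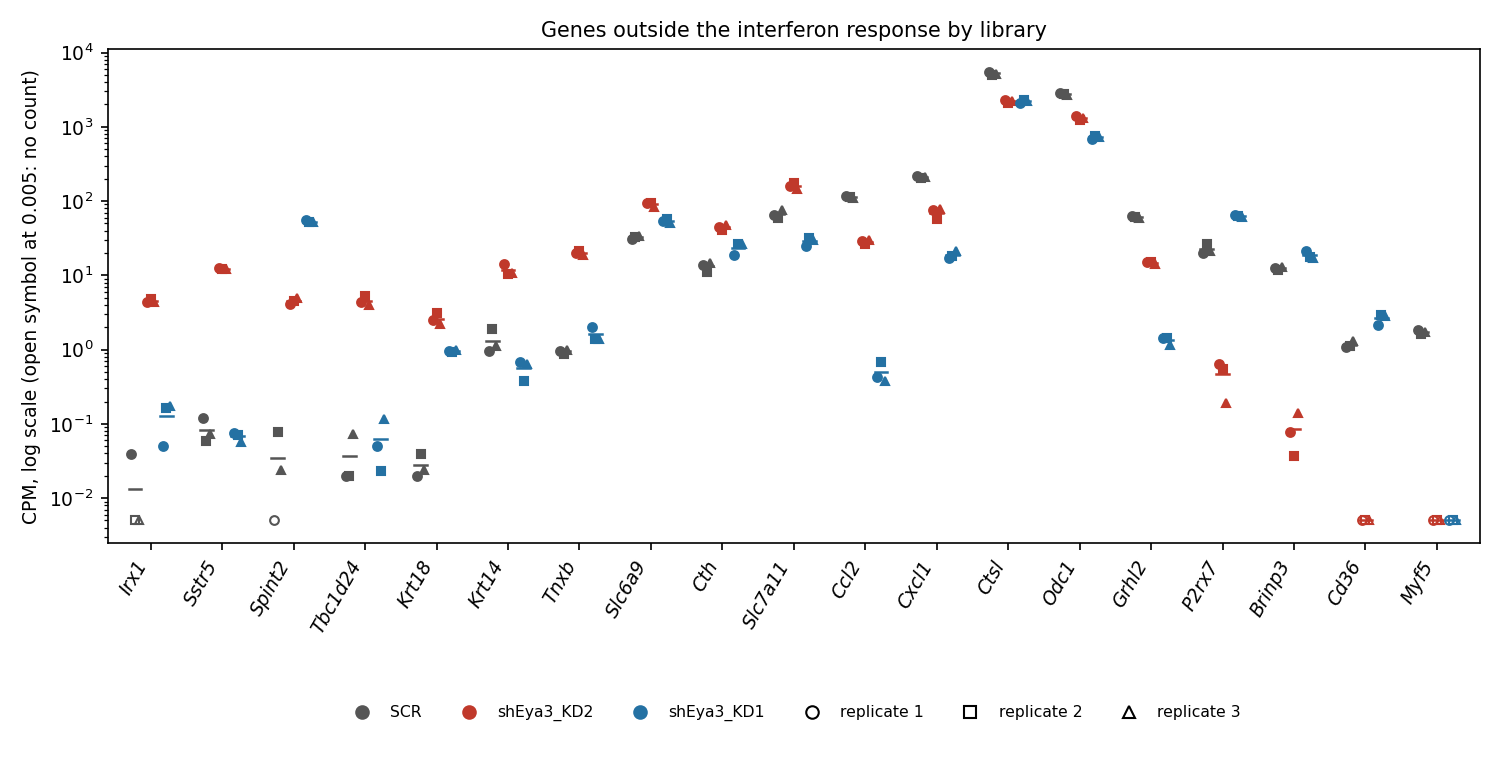
CPM on a log axis for 19 genes outside the interferon response, with 1 symbol per library, a line at each group mean and open symbols at 0.005 for libraries with no count. The 3 shEya3_KD2 libraries lie close together for most genes, for example Slc6a9 at 93.0, 95.2 and 82.4 CPM, and Ccl2 lies between SCR and shEya3_KD1.

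Chemokines, which draw leukocytes to a tissue, mostly fell. Of 11 tested chemokines 6 fell, each by more than 2-fold, and 1 rose (median -1.40). Ccl2, which attracts monocytes, fell from 118, 112 and 108 CPM to 28.8, 26.2 and 29.8 CPM (-1.999 ± 0.08, adjusted p = 1.93e-10). Ccl7, its neighbour and relative, fell from 6.20, 6.29 and 5.77 CPM to 0.390, 0.406 and 0.755 CPM (-3.54 ± 0.22). Among ligands of neutrophils, Cxcl1 fell by 1.58, Cxcl3 by 1.72 and Cxcl5 by 1.40. Ccl4 rose from 0.185 to 0.611 CPM, with 27 counts in SCR and 75 in shEya3_KD2. Cxcl10 and Ccl5, chemokines of T cells that belong to the interferon lists, rose instead (1.97 ± 0.10 and 0.93 ± 0.06). Cxcl9, another chemokine of those lists, was too low to test, with 24 summed counts in SCR and 2 in shEya3_KD2. Ccl5 was at 18.4, 17.8 and 18.2 CPM in SCR and 34.4, 34.9 and 34.5 CPM in shEya3_KD2, so replicate 2 did not stand apart for this gene.

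With shEya3_KD1 against the same SCR libraries the chemokine median was -3.31, with 2 risen and 8 fallen. In the direct test 7 of 11 were higher in shEya3_KD2 and 2 lower. Ccl2 was at 0.493 CPM in shEya3_KD1 (5.81 ± 0.14 between hairpins, adjusted p = 1.52e-13).

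Targets of NF-kB, the factor behind many inflammatory genes, fell more often than they rose. Of 25 tested subunits, inhibitors and targets 3 rose and 11 fell, with a median of -0.23. The subunits Rela (0.08 ± 0.08), Nfkb1 (0.16 ± 0.08), Nfkb2 (-0.07 ± 0.08) and Relb (0.05 ± 0.08) were not called. Nfkbia, the inhibitor that NF-kB itself induces, fell from 192, 182 and 178 CPM to 106, 98.8 and 103 CPM (-0.84 ± 0.08). Mmp9, a gelatinase, fell by 1.43, the adaptor Traf1 by 0.85 and the cyclooxygenase Ptgs2 by 0.72. Those that rose were Tnfaip2 (1.21 ± 0.06), the siderophore-binding Lcn2 (0.82 ± 0.15) and the co-regulator Nfkbiz (0.59 ± 0.10). Tnfaip2 went from 170.1, 170.0 and 175 CPM to 404, 393 and 389 CPM, and the 40 genes around it on chromosome 12 had a median of 0.83. Between hairpins 21 of the 25 were higher in shEya3_KD2. The median with shEya3_KD1 was -0.999.

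Tnfaip2, the most changed of the members that rose, holds GGANTTTCC, a form of the NF-kB site, before its RefSeq start (GRCm38.p6, match in capitals). In GENCODE M21 the gene starts at 111442469, which lies ahead of the match.
Tnfaip2 (chr12:111442411-111442660, plus strand): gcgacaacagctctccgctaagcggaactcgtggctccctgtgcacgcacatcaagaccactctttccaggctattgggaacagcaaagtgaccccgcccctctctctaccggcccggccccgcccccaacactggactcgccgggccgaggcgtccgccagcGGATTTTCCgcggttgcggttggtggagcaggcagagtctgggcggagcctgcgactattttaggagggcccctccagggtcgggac
GGANTTTCC was in 25.0% of 20 promoters of the list, 1.4% of promoters of tested genes and 1.3% of all promoters, on either strand of the same window.

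Growth factors and cytokines of myeloid cells went both ways. Of 16 tested 4 rose and 6 fell, none by more than 2-fold, and 2 rose without SCR replicate 2 or shEya3_KD2 replicate 2. Il34, a ligand of the macrophage receptor Csf1r, fell from 31.3, 34.0 and 29.4 CPM to 16.4, 19.3 and 16.7 CPM (-0.86 ± 0.09), and Lif by 0.86. Csf1, the other ligand of that receptor, was not called (0.13 ± 0.09). Spp1 (osteopontin) rose from 283, 297 and 287 CPM to 417, 444 and 418 CPM (0.56 ± 0.06). Cd274 (PD-L1), which restrains T cells and is interferon-induced, rose from 5.09, 4.48 and 4.79 CPM to 8.05, 12.3 and 7.79 CPM (0.95 ± 0.15), again with replicate 2 the highest. Of 14 ligands of NK cell receptors 5 rose and 7 fell, and 3 rose without shEya3_KD2 replicate 1 or 2. Tnfsf10 (TRAIL) rose by 2.11 ± 0.37, and Raet1e and Raet1d, ligands of NKG2D that overlap each other in the annotation, fell by 1.42 and 1.37.

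AP-1 and early response genes were divided, with 11 risen and 9 fallen of 32. Klf4, a factor of differentiation, rose from 7.96, 8.83 and 8.71 CPM to 31.8, 32.5 and 29.9 CPM (1.89 ± 0.09), and Egr2 by 1.38. Jund fell from 322, 339.5 and 328 CPM to 188, 187 and 169 CPM (-0.86 ± 0.07), and Ier3 by 0.95. Fos and Jun themselves were not called (0.33 ± 0.25 and 0.11 ± 0.07).

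**Figure D3:**
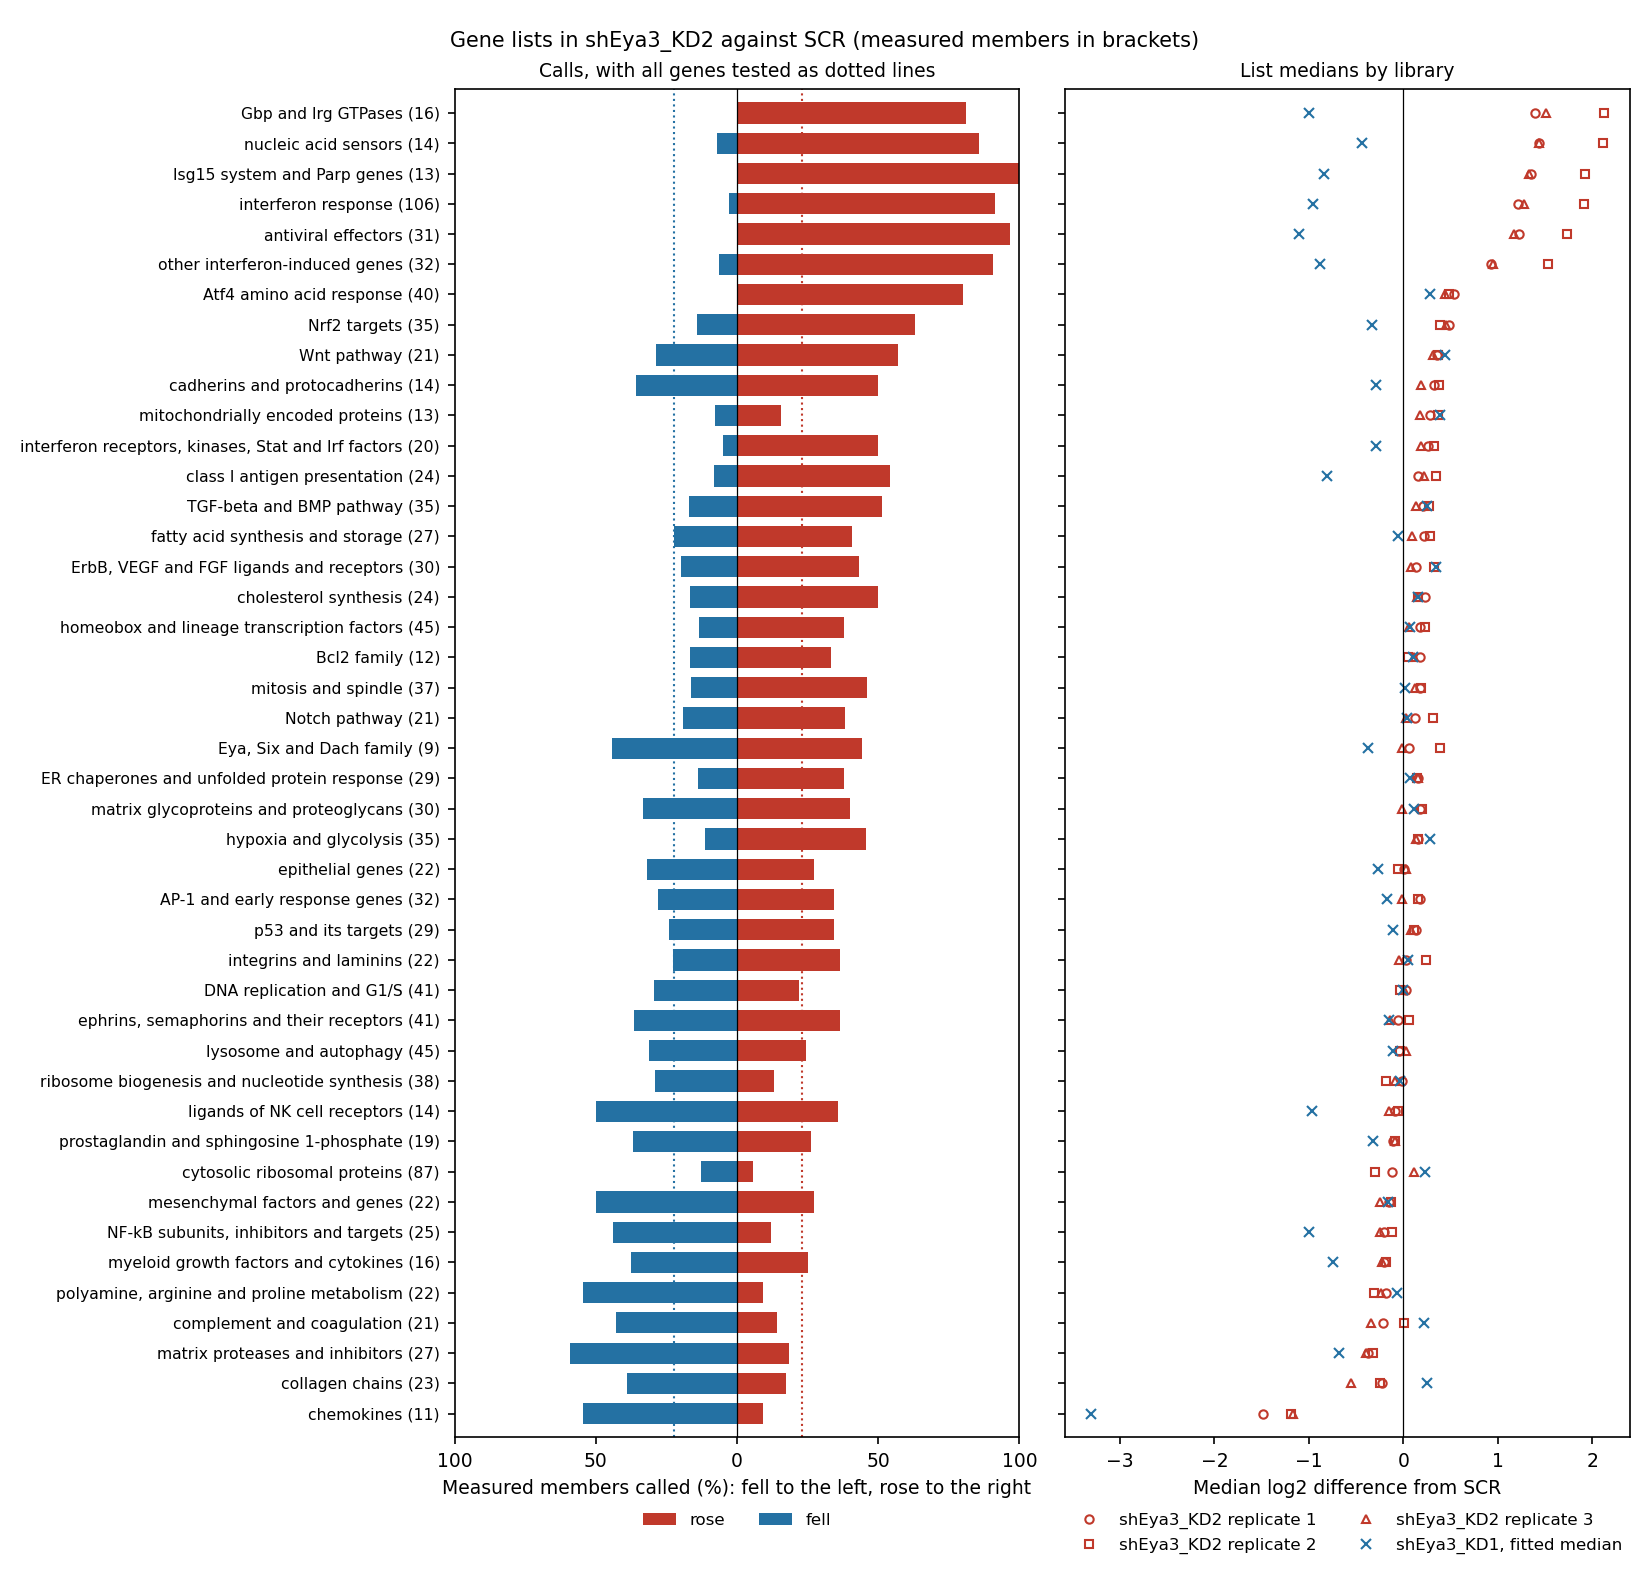
The left panel shows the percentage of tested members of each list that fell (left) or rose (right) in shEya3_KD2 against SCR, with dotted lines at the shares over all genes (22.3% and 23%). The right panel shows each list's median log2 difference from SCR in each shEya3_KD2 library and the fitted median with shEya3_KD1, and the 5 interferon lists with their union lie at the top, with library medians from 0.93 to 2.12.

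Proteases that cut the extracellular matrix mostly fell. Of 27 tested proteases and inhibitors 16 fell and 5 rose (median -0.35, or -0.54 among those of at least 5 CPM in 3 libraries). Mmp1b, a matrix metalloprotease, was at least 50.7-fold lower in shEya3_KD2, where no read was counted against 180 in SCR. The bound sets the empty group to 3 counts. Mmp3, the stromelysin, fell from 1.96, 1.73 and 1.76 CPM to 0.0195, 0.111 and 0 CPM (-5.65 ± 0.45), and Mmp10, its close relative, by 2.64. These 3 genes lie close together on chromosome 9. Adam22, a membrane protein without protease activity, fell from 16.7, 17.0 and 19.02 CPM to 0.390, 0.369 and 0.449 CPM (-5.43 ± 0.14). Mmp14, a membrane collagenase, fell by 0.56. Adam19 and Mmp28 rose (2.18 ± 0.22 and 1.44 ± 0.24), both from under 1 CPM, and the inhibitor Timp1 rose by 0.27.

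Structural matrix genes were mixed. Of 23 collagen chains 4 rose and 9 fell (median -0.41). Among chains of at least 5 CPM in 3 libraries the median was 0.07 and 2 fell, so most of the fallen chains were low. Col4a5, a basement membrane chain, rose from 22.7, 25.1 and 25.0 CPM to 57.1, 63.8 and 56.7 CPM (1.29 ± 0.07), and Col8a1 by 0.64. Col16a1 fell from 2.02, 2.52 and 2.26 CPM to 0.566, 0.591 and 0.590 CPM (-1.96 ± 0.18), and Col6a1 by 1.26. The neighbours of Col6a1 on chromosome 10 had a median of -0.45. Among matrix glycoproteins and proteoglycans 12 of 30 rose and 10 fell. Tnxb, a tenascin, rose from 0.970, 0.885 and 0.986 CPM to 20.3, 21.3 and 18.9 CPM (4.41 ± 0.14, adjusted p = 9.02e-12). In shEya3_KD1 Tnxb was at 1.60 CPM (3.65 ± 0.13 between hairpins, adjusted p = 8.75e-12). Bgn (biglycan) rose by 3.28 ± 0.27. The elastic-fibre protein Mfap5 and the crosslinking enzyme Loxl4 fell by 1.08 and 1.04. Fn1 (fibronectin) was not called (-0.28 ± 0.17).

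Adhesion genes also divided. Of 22 integrins and laminins 8 rose and 5 fell, with a median of 0.05. With the length trend removed 6 rose and 8 fell, with a median of -0.15. The laminin chain Lamb3 fell from 5.76, 6.65 and 5.58 CPM to 1.60, 0.887 and 1.23 CPM (-2.22 ± 0.18). Its neighbours on chromosome 1 had a median of -0.35. Itgb7 rose by 1.35 and Lamc3 fell by 0.999. Of 14 cadherins and protocadherins 7 rose and 5 fell. Pcdh9, a neuronal protocadherin, fell from 6.87, 7.65 and 7.17 CPM to 0.0585, 0 and 0.0236 CPM (-7.65 ± 0.26), with 4 counts left in the 3 libraries. Pcdh18 and Cdh13 rose by 1.62 and 1.37.

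Epithelial genes changed by large factors in both directions. Of 22 tested 6 rose and 7 fell. Krt18, the usual partner of Krt8 in simple epithelia, rose from 0.0198, 0.0393 and 0.0240 CPM to 2.54, 3.14 and 2.20 CPM (6.39 ± 0.32). Krt14, a keratin of basal cells, rose from 0.950, 1.89 and 1.13 CPM to 14.02, 10.49 and 10.9 CPM (3.15 ± 0.21). Spint2, an inhibitor of membrane serine proteases, rose from 0.0342 to 4.56 CPM (6.91 ± 0.28). Krt19 rose from 3 summed counts to 55, a ratio of 21.7 (95% counting interval 7.05 to 109), and remained low at a mean of 0.443 CPM. Grhl2, a transcription factor that maintains epithelial junctions, fell from 63.6, 60.8 and 59.9 CPM to 15.2, 14.96 and 14.02 CPM (-2.06 ± 0.07, adjusted p = 3.28e-11). Krt20 fell by 2.27. Krt18, Krt14 and Krt19 thus rose while Krt20 and Grhl2 fell in the same libraries.

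Of 22 mesenchymal factors and genes 6 rose and 11 fell (median -0.18), with 7 fallen when any 1 SCR library or replicate 1 of shEya3_KD2 was left out. Snai2, a repressor of epithelial genes, fell by 0.89 ± 0.08 and Twist1 by 0.29 ± 0.07. Zeb2, another such repressor, rose from 43.9, 48.0 and 51.0 CPM to 78.1, 86.3 and 69.4 CPM (0.71 ± 0.10, or 0.37 with the length trend removed), and Zeb1 was not called (-0.14 ± 0.10). Podoplanin (Pdpn), a membrane glycoprotein of invasive cells, fell from 384, 362 and 357 CPM to 167, 139 and 179 CPM (-1.18 ± 0.09). Tpm2, an actin-binding tropomyosin, fell by 1.31.

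Among growth factor pathways, TGF-beta and BMP genes rose more often than they fell (18 and 6 of 35, median 0.22, or 0.14 with the length trend removed). The extracellular antagonists Fst (follistatin) and Fstl1 rose by 2.01 ± 0.09 and 2.55 ± 0.24, and the antagonist Fstl3 fell by 1.22 ± 0.08. The neighbours of Fstl3 on chromosome 10 had a median of -0.32. Smad6, an inhibitory Smad, rose from 2.02, 2.06 and 1.78 CPM to 6.34, 6.76 and 6.77 CPM. The receptor Tgfbr2 fell by 0.38. Of 21 Wnt pathway genes 12 rose and 6 fell. The co-receptor Lrp5 rose by 0.999 and the nuclear factor Tcf7 by 1.82, and the feedback inhibitor Nkd1 fell from 30.0, 31.0 and 30.3 CPM to 7.94, 8.57 and 7.25 CPM (-1.95 ± 0.10). Axin2, another feedback target, fell by 0.38.

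Of 21 Notch pathway genes 8 rose and 4 fell. The receptor Notch1 rose from 0.416, 0.610 and 0.505 CPM to 8.66, 14.4 and 7.01 CPM (4.26 ± 0.32), with replicate 2 the highest, and the ligand Jag1 by 0.58. The receptor Notch4 fell by 1.75, the regulator Dtx1 by 1.54 and the target Hes1 by 0.54. Dtx1 lies on chromosome 5 among neighbours with a median of -0.39. Of 30 ErbB, VEGF, FGF and PDGF ligands and receptors 13 rose and 6 fell. The receptor Pdgfrb rose by 2.16 ± 0.26 and the ligand Pdgfb by 1.79 ± 0.21. Vegfc, a ligand for lymphatic vessels, fell from 18.6, 20.04 and 17.7 CPM to 4.78, 4.77 and 4.41 CPM (-2.02 ± 0.09), and the receptor Erbb4 fell by 3.91. Ephrins, semaphorins and their receptors had 15 risen and 15 fallen of 41 (36.6% each, beside 23% and 22.3% over all tested genes). The receptor Epha4 rose from 9 counts in SCR to 193 (4.61 ± 0.39), while Epha7 fell from 5.98, 6.12 and 6.23 CPM to 0.468, 0.406 and 0.567 CPM (-3.64 ± 0.15) and the guidance ligand Slit2 by 2.85.

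Relatives of Eya3 changed in both directions. Of 9 tested members of the Eya, Dach and sine oculis families 4 rose and 4 fell, the targeted gene included. Six4 and Six3, homeobox factors of the sine oculis family, rose by 0.49 ± 0.08 and 0.65 ± 0.10. The widest rise in the list, by another member, was 1.78. Eya4 fell from 0.695 to 0.114 CPM (-2.56 ± 0.34). Dach1, a co-repressor that works with sine oculis factors, fell from 469 summed counts to 1, an SCR to shEya3_KD2 ratio of 396 (95% counting interval 70.7 to 15700).

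Homeobox and lineage factors rose more often than they fell, with 17 and 6 of 45 (37.8% and 13.3%). Over all tested genes the shares were 23% and 22.3%. Irx1, an Iroquois homeobox factor, rose from 2 summed counts to 536, a ratio of 317 (95% counting interval 87.4 to 2630), with 4.31, 4.80 and 4.37 CPM in the 3 libraries. Gata3, the factor of mammary luminal cells, rose from 45.8, 51.5 and 48.0 CPM to 101, 113 and 90.9 CPM (1.07 ± 0.09), and Sox4 by 1.08. Myf5, which starts muscle differentiation, was at least 69.8-fold lower, from 248 summed counts to 0. Sox6 fell by 2.53.

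Polyamine, arginine and proline metabolism had 12 of 22 tested genes fallen and 2 risen (median -0.25), and 1 rose under RLE scaling, thinning, DESeq2, limma-voom or removal of the length trend. Odc1, which turns ornithine into the polyamine putrescine, fell from 2870.2, 2729.5 and 2661 CPM to 1386, 1239.7 and 1321 CPM (-1.07 ± 0.07, adjusted p = 2.17e-08). Its regulator Oaz1 fell by 0.69 and Sat1, which acetylates polyamines for export, by 0.75. Amd1, which supplies the aminopropyl donor, fell by 0.43, with counts that could be split with its copy Amd2. The synthases Srm and Sms were not called (-0.07 ± 0.07 and -0.08 ± 0.11). Cps1, a urea cycle enzyme, fell by 3.86 ± 0.22. Aldh18a1, the entry step of proline synthesis and a known Atf4 target, rose by 0.78. Myc, a known activator of Odc1, rose from 186, 192 and 189 CPM to 274, 276 and 256 CPM (0.51 ± 0.07).

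Lipid genes moved little apart from a few. Of 24 cholesterol synthesis genes 12 rose and 4 fell, none by more than 2-fold, and leaving out any 1 library left 1 or 2 fallen, as did testing without the low-count filter (2 fallen). Sqle rose by 0.71 ± 0.06 and Insig1, a feedback sensor, by 0.58 ± 0.06. Mvk, the mevalonate kinase, fell by 0.29 ± 0.07 among chromosome 5 neighbours with a median of -0.34. Of 27 fatty acid genes 11 rose and 6 fell. The desaturases Scd1 and Scd2 rose by 0.75 ± 0.08 and 0.49 ± 0.09. Cd36, a fatty acid importer, was at least 46.4-fold lower, from 165 summed counts to 0, whereas with shEya3_KD1 it rose (1.18). Fabp4, a fatty acid chaperone, fell by 3.51 ± 0.30.

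Hypoxia and glycolysis genes had 16 risen and 4 fallen of 35 (median 0.12), and 2 fallen without SCR replicate 3. Car9, a carbonic anhydrase of hypoxic cells, rose from 11.2, 17.9 and 14.8 CPM to 38.9, 47.6 and 39.5 CPM (1.52 ± 0.16) and the glucose transporter Slc2a1 by 0.48. Egln3, an oxygen-sensing hydroxylase, fell from 151, 146 and 142 CPM to 75.7, 73.3 and 73.0 CPM (-0.99 ± 0.07). Ldha was not called (-0.01 ± 0.06).

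Genes of cell division changed by small amounts. Of 37 mitosis and spindle genes 17 rose and 6 fell (median 0.16). Leaving out any 1 SCR library, or replicate 1 of shEya3_KD2, brought the risen count to between 9 and 11, and with the length trend removed the median was 0.03. Kif2c, a kinesin, rose by 0.46 ± 0.07. Mki67, the proliferation marker, was at 500.3, 634 and 618 CPM in SCR and 836, 1129 and 656 CPM in shEya3_KD2 (0.58 ± 0.18, adjusted p = 0.022). Its libraries lay far apart, and without SCR replicate 1 the adjusted p was 0.0790. Ccna2 and Ect2 fell by 0.45 ± 0.06 and 0.45 ± 0.06, and both lie on chromosome 3 among genes with medians of -0.43 and -0.48. Ccnb1, the mitotic cyclin, fell by 0.41 ± 0.08. Of 41 replication genes 9 rose and 12 fell (22% and 29.3%), beside 23% and 22.3% over all tested genes. The helicase subunit Mcm6 rose by 0.44 ± 0.06, and the clamp loader subunit Rfc5 fell by 0.67 ± 0.07. The neighbours of Rfc5 on chromosome 5 had a median of -0.43.

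p53 target genes were divided, 10 risen and 7 fallen of 29 (34.5% and 24.1%, beside 23% and 22.3% over all tested genes). Trp53inp1 rose from 9.98, 10.9 and 10.03 CPM to 23.6, 28.6 and 24.5 CPM (1.30 ± 0.09), and Bbc3 (PUMA), which starts apoptosis, by 0.95 ± 0.09. Cdkn1a, the cell cycle inhibitor p21, rose by 0.37. The death receptor Fas fell by 0.97 ± 0.15 and the ribonucleotide reductase subunit Rrm2b by 0.68 ± 0.07. In the Bcl2 family 4 of 12 rose and 2 fell, with both survival genes Bcl2 (0.76 ± 0.11) and Bcl2l1 (0.62 ± 0.06) among the risen.

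Cytosolic ribosomal proteins mostly did not pass the test, with 5 risen and 11 fallen of 87. Their library medians were -0.12, -0.30 and 0.11, so replicates 2 and 3 lay on opposite sides of SCR. Without replicate 3 of shEya3_KD2 40 of them fell, without replicate 2 the median was 0.00, and with the length trend removed 17 rose. Rplp0 fell by 0.54 ± 0.09 and Rpl6 by 0.44 ± 0.08, and their chromosome 5 neighbours had medians of -0.46 and -0.40. Ribosome biogenesis and nucleotide synthesis had 5 of 38 risen and 11 fallen (2 risen without SCR replicate 2 or shEya3_KD2 replicate 1, and 7 fallen without SCR replicate 1), with Polr1a, the large subunit of RNA polymerase I, risen by 0.42. Mitochondrially encoded proteins had 2 of 13 risen and 1 fallen, but 5 rose without SCR replicate 2, and 0 rose without any other library, with the replicate block or with the length trend removed. The call of mt-Co1 (0.51 ± 0.18, adjusted p = 0.0372) was near the threshold, and it was lost without any 1 library except SCR replicate 2.

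Lysosome and autophagy genes had 11 risen and 14 fallen of 45, and 7 risen without SCR replicate 3. With all libraries the shares were 24.4% risen and 31.1% fallen, beside 23% and 22.3% over all tested genes. Ctsl, the protease cathepsin L, fell from 5532, 5025 and 5136 CPM to 2318, 2093 and 2224 CPM (-1.24 ± 0.07, adjusted p = 6.70e-09), the widest loss in CPM of any gene tested. It lies on chromosome 13 among neighbours with a median of -0.35. Sqstm1 (p62), a cargo receptor of autophagy that is also an Nrf2 target, rose from 247, 239.7 and 248 CPM to 437, 401 and 395 CPM (0.75 ± 0.07).

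Of 21 complement and coagulation genes 3 rose and 9 fell, or 5 fell without SCR replicate 2 or shEya3_KD2 replicate 1. The protease receptor F2rl1 rose by 2.78 ± 0.22. Procr, the endothelial protein C receptor, fell from 169, 166 and 157 CPM to 26.0, 22.3 and 26.96 CPM (-2.71 ± 0.08, adjusted p = 6.18e-12). Of 19 prostaglandin and sphingosine 1-phosphate genes 5 rose and 7 fell. Ptgds, the prostaglandin D synthase, rose from 1.66, 1.79 and 1.71 CPM to 17.0, 21.3 and 18.1 CPM (3.44 ± 0.11), and Spns2, which exports sphingosine 1-phosphate, from 4.34, 6.53 and 4.76 CPM to 43.8, 40.9 and 38.6 CPM (2.98 ± 0.13). Ptges, the prostaglandin E synthase, fell from 226, 213 and 207 CPM to 114, 105 and 111 CPM (-0.97 ± 0.08).

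The genes with the largest fold changes outside the interferon response were nearly silent in one group. Over all tested genes, those of the interferon response included, 81 rose and 139 fell by more than 8-fold. Sstr5, a somatostatin receptor, rose from 0.119, 0.0590 and 0.0721 CPM to 12.5, 12.3 and 11.99 CPM (7.14 ± 0.18, adjusted p = 2.64e-12). Tbc1d24, a gene of vesicle traffic near Sstr5 on chromosome 17, rose from 5 counts in SCR to 539 in shEya3_KD2 (6.90 ± 0.32). In shEya3_KD1 they stood at 0.0676 and 0.0629 CPM. Mup21 rose from 1 summed count to 163, a ratio of 193 (interval 34.2 to 7670), and Frmpd3 from 1 to 137, a ratio of 162 (interval 28.6 to 6450). Dmrtc1a rose from 2 counts to 182, a ratio of 108 (interval 29.4 to 897). Tet2, an enzyme that oxidises methylcytosine, rose from 2 counts to 121, a ratio of 71.7 (interval 19.4 to 598). These intervals cover counting error only. Nudt14, Gxylt2 and the water channel Aqp1 rose by 6.33, 5.80 and 5.54, and they rose with shEya3_KD1 too (6.58, 6.81 and 7.03).

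Among the widest losses Brinp3 fell from 12.7, 11.96 and 12.9 CPM to 0.0780, 0.0369 and 0.142 CPM (-7.06 ± 0.21). With shEya3_KD1 Brinp3 was at 18.7 CPM, above SCR. P2rx7, a receptor for extracellular ATP, fell from 20.2, 26.6 and 21.3 CPM to 0.644, 0.554 and 0.189 CPM (-5.61 ± 0.21), and stood at 63.5 CPM in shEya3_KD1 (-7.09 ± 0.21 between hairpins, adjusted p = 3.30e-11). For both genes the hairpins went opposite ways from SCR. The mucin gene Muc3, Wfdc15a and Efhc2 fell (-6.15 ± 0.25, -5.74 ± 0.33 and -5.37 ± 0.26), and these 3 fell with shEya3_KD1 as well (-3.70 for Muc3 and -6.12 for Wfdc15a), where Efhc2 had 0 counts.

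By difference in CPM, abundant genes of several kinds moved by less than 2-fold or little more. After Fth1 and mt-Co1 the risen protein-coding genes outside the interferon response that gained most were Scd2 (2469 to 3467 CPM), Ahnak (682 to 1448), Hsp90aa1 (1476 to 2102), Dync1h1 (596 to 1174), Myof (1126 to 1685) and Hnrnpul1 (482 to 1018). Ahnak and Dync1h1 were highest in replicate 2 (1320.5, 2037 and 987 CPM and 1070.3, 1581 and 869 CPM), and both encode very large proteins. Hnrnpul1, an RNA-binding protein, rose from 466, 502 and 479.6 CPM to 1026, 1088 and 939 CPM (1.08 ± 0.08), and was lower than SCR with shEya3_KD1 (-0.68). After Ctsl and Odc1 the fallen protein-coding genes that lost most were Rplp0, Atp5b (-0.49 ± 0.07), Igfbp4 (-0.93 ± 0.08), Lgals1 (-0.33 ± 0.09), Bsg (-0.56 ± 0.06) and Rpl6. Igfbp4, which binds insulin-like growth factors, went from 977, 1005 and 939 CPM to 519, 532 and 487 CPM.

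Changes followed position along some chromosomes. Genes of at least 5 CPM, 10221 in all, were ordered along chromosomes 1 to 19 and X, and the median log2 difference from SCR was taken over 950 windows of 41 genes. Each SCR library, taken against the mean of the other SCR libraries, stayed within 0.082 of 0 in every window. In shEya3_KD2 the window medians of the fitted log2 fold change ranged from -0.52 to 0.838, with the 3 libraries close together. Blocks were called, after the data had been seen, where 3 or more windows in a row passed 0.2 in all 3 libraries, which gave 7 blocks of 617 genes. Their shares and medians in shEya3_KD2 follow from that choice and are not a test. The rising block, on chromosome 12 from 98.7 to 111.9 Mb, had 61 of 71 genes risen and 1 fallen (median 0.63). Blocks run between window centres, so genes at the very end of a chromosome count as outside any block. Nudt14 lies past this edge on chromosome 12, and of 34 genes around it 32 rose and 1 fell (median 0.85). The rising block holds Tnfaip2, Hsp90aa1 and Dync1h1. In shEya3_KD1 the same block had a median of 0.46.

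The 6 falling blocks held 546 genes, of which 67.0% fell and 6.0% rose. Of the 9604 genes outside any block 19.8% fell and 31.6% rose, a difference set in advance by how blocks were picked. Their medians ran from -0.46 on chromosome 13 (64.2 to 73.8 Mb, which holds Ctsl) to -0.27 on chromosome 7 (35.0 to 43.6 Mb). The block on chromosome 5 (110.3 to 123.3 Mb) holds Rplp0, Rpl6, Rfc5, Noc4l, Mvk and P2rx7, with a median of -0.40. The block on chromosome 10 (76.5 to 108.3 Mb), with Bsg and Fstl3, had a median of -0.33. That on chromosome 3 (19.1 to 86.8 Mb), with Ccna2, Ect2, Slc7a11 and Pcdh18, had a median of -0.35 in shEya3_KD2 and 0.03 in shEya3_KD1. The smaller block on chromosome 12 (31.6 to 51.5 Mb), with Dnajb9, had a median of -0.32 and -0.02. The blocks on chromosomes 5, 7, 10 and 13 were negative in shEya3_KD1 as well (-0.34, -0.71, -0.55 and -0.64). Copy number was not measured, and what lies behind the blocks was not tested. Ctsl, P2rx7 and Fstl3 fell by more than the median of their block, whereas the falls of Ccna2, Ect2, Mvk and Rpl6 were about its size.

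**Figure D4:**
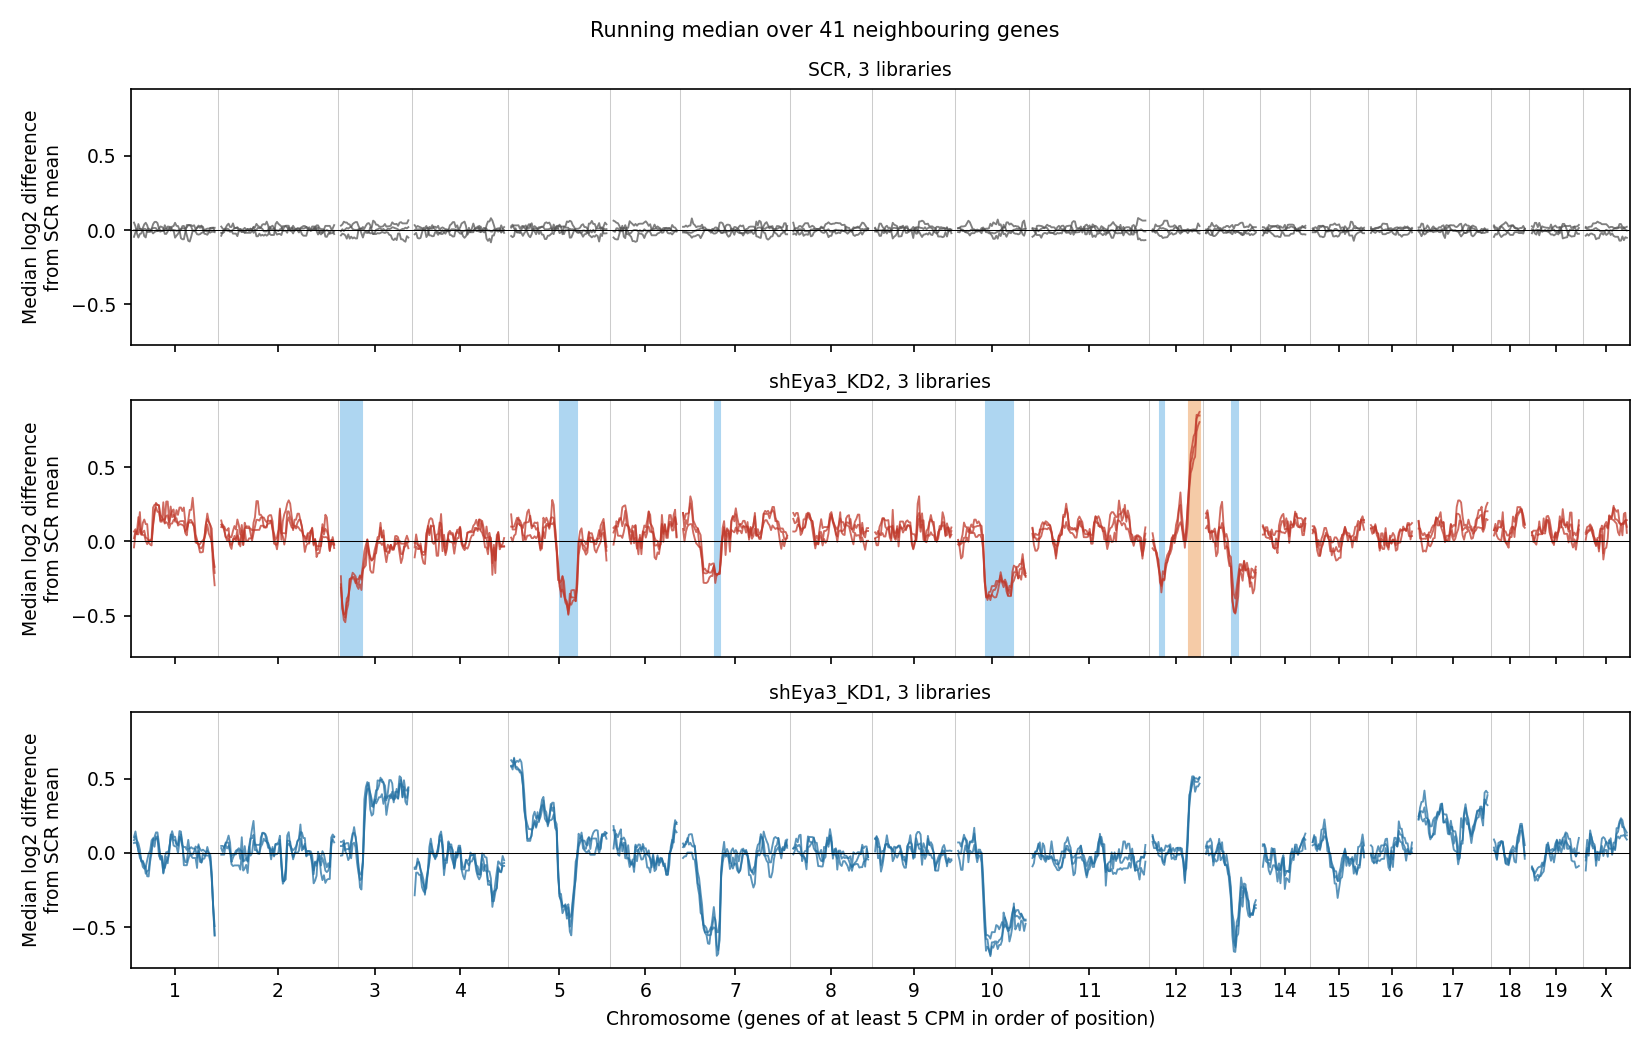
Running median of the log2 difference from the SCR mean over 41 neighbouring genes, in gene order along each chromosome, with 1 line per library. Each SCR library was taken against the mean of the other SCR libraries. SCR lines stay near 0, while the 3 shEya3_KD2 lines fall together in the blue bands on chromosomes 3, 5, 7, 10, 12 and 13. They rise together in the orange band on chromosome 12, where the median of the fitted fold change reaches 0.838.

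Changes also followed gene length. Among genes of at least 5 CPM split into 5 equal groups by summed exon length, 47.0% of the longest group rose and 12.9% fell, while 14.3% of the shortest group rose and 30.7% fell. The medians of the longest and shortest groups were 0.32 and -0.22 in replicate 2, 0.20 and -0.09 in replicate 1, and 0.09 and -0.02 in replicate 3. SCR replicate 1 leaned the other way (-0.07 and 0.07), so libraries of one group also differed in this respect. Removing the trend over length from each library, an alternative chosen after the data had been seen, lowered the log2 fold changes of Ahnak (0.72), Myof (0.35), Six4 (0.28), Polr1a (0.20), Mki67 (0.38) and Zeb2 (0.37), and brought Lgals1 to -0.20. All of these kept their calls. Ahnak, Dync1h1, Rnf213 and Mki67, which encode very large proteins, were highest in replicate 2, and the short ribosomal protein genes had their lowest median there. The part of length in these values was not tested.

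**Figure D5:**
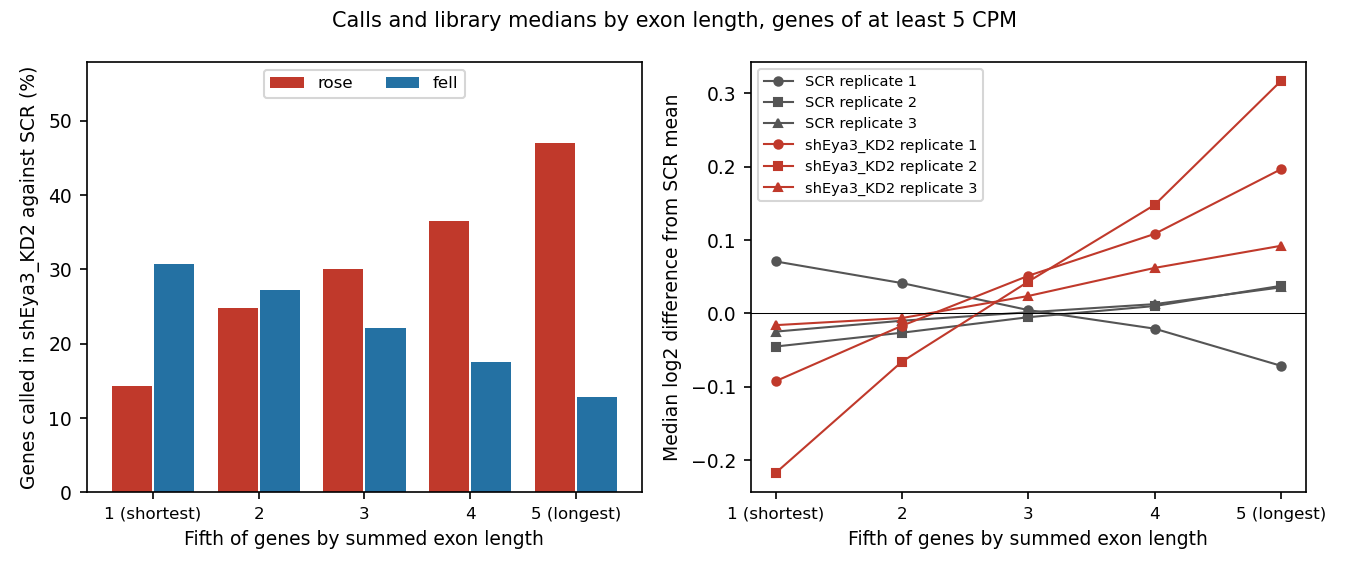
Left, the percentage of genes called in shEya3_KD2 against SCR in 5 groups by summed exon length, from shortest to longest. Right, the median log2 difference from the SCR mean by length group for each library, steepest in shEya3_KD2 replicate 2 (-0.22 to 0.32) and of opposite slope in SCR replicate 1. Each SCR library was taken against the mean of the other SCR libraries.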

How the data were processed

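RNA-seq of 66cl4 cells was analysed in 9 libraries, 3 each of SCR, shEya3_KD2 and shEya3_KD1. The values are raw read counts for each gene symbol, as deposited by the authors. The submitters' processing notes name FastQC, MultiQC, STAR and mm10, and the labels' protocols name a poly(A) mRNA library kit. Which program, annotation and strand setting produced the counts is not given in the sources used here. Totals of 27758862 to 52691960 counts per library set the precision, and no column was left unused.

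Genes were filtered with filterByExpr, scaled by TMM and tested with edgeR 4.0.16 (R 4.3.3) by the quasi-likelihood F test with robust dispersion, fitted to all 9 libraries so that the groups share 1 estimate of the spread. Adjusted p-values are Benjamini-Hochberg over 15914 genes at a threshold of 0.05. CPM values use TMM library sizes, errors of CPM are SD and those of log2 fold changes are the fold change divided by the square root of F. Bounds set a group without counts to 3 counts, and counting intervals are at 95%. An exact two-sided permutation test of 3 against 3 libraries cannot go below 0.1. The fit was tested on simulated counts. Within each group no 2 libraries were repeats of one another by a chi-square test of their counts. Pairs from different groups were not compared.

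Gene lists, members and the rule for named genes were chosen with earlier results of these data known. The rule takes, outside the interferon response, the 12 rising and 12 falling genes of the widest fold change and the 8 of the widest CPM difference, the 10 widest within the response, and up to 2 rising and 2 falling members of each list, passing over predicted genes and pseudogenes. Each needed a mean of 1 CPM in a group and no overlap. Other genes were named for their role after their values were seen. Some genes that the rule takes are not reported here. Alternatives used DESeq2 1.42.0, limma 3.58.1, other filters and scaling, thinning, the replicate number as a block and leaving out each library. Promoters came from RefSeq (GRCm38.p6) and positions from GENCODE M21 by symbol. Python 3.11.15 with pandas 2.3.3 and matplotlib 3.10.9 was used for positions and figures.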

Additional observations from a re-analysis of the deposited data

How the results depend on the processing

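The counts of risen and fallen genes, the risen interferon genes and their median, and Eya3 kept their direction and stayed within 1.5 times of the reported values under every alternative run, and none reversed. Across RLE scaling, other filters, the 6 libraries alone, thinning to the shallowest library, DESeq2, limma-voom and removal of the length trend, 2953 to 3862 genes rose and 2733 to 4002 fell. Leaving out 1 library gave 3032 to 3878 risen and 2952 to 3817 fallen genes, both lowest without shEya3_KD2 replicate 1 and highest without replicate 3. The risen interferon genes numbered 95 to 100 and their median was 1.28 to 1.62 when 1 library was left out. Same-numbered SCR and shEya3_KD2 libraries had correlations of 0.257, 0.452 and -0.182 in their deviations from the group means. Replicates 1 and 2 of shEya3_KD2 correlated best with their own number, and replicate 3 with SCR replicate 1 (0.476). With so few libraries these values cannot settle whether the numbers pair the samples. With the replicate block 3674 genes rose and 3655 fell, and 7056 of the calls (97.9%) were kept. Of 187 named genes besides Eya3, 7 missed the threshold under some alternative, among them mt-Co1, mt-Co2, mt-Nd3, Ifngr2, Mki67 and Paox, and none changed sign. The thinned libraries, at the depth of the shallowest, still gave 3405 risen and 3283 fallen genes. Genes with few counts, such as Ifnb1 or Epha4, rest on under 10 counts in SCR, and 24748 gene symbols had no count in any library.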
